A study of Mus musculus with 2 samples.

Results

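Complement genes and the microglial receptor pair Trem2 and Tyrobp were described in brain RNA. They are C1qa, C1qb, C1qc, C3, C4b, Serping1, Itgam, Trem2 and Tyrobp, chosen by symbol and found by Ensembl gene identifier, 9 of 43346 genes measured. The RNA came from the brain of 1 male C57BL/6J mouse, an inbred strain, aged 10 weeks. It was selected for poly(A) tails and sequenced as 2 libraries, which the labels call technical replicates 2 and 1 of one biological replicate. Replicate 2 was made later than the publication that the labels name. Both libraries carry the same genotype and no treatment, so the comparison is between the libraries, and its direction is replicate 2 over replicate 1. A mean ± SD over them holds no difference between animals.

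Complement is a cascade of proteins that tags material for removal. C1q, a bundle of A, B and C chains with collagen-like stems, starts its classical arm. C4 and then C3 are cleaved and bind covalently to the target, C1 inhibitor (Serping1) restrains the first proteases, and complement receptor 3, whose alpha chain is Itgam (CD11b), recognises deposited C3 fragments. In brain, microglia make most of the C1q, and tagged synapses can be engulfed through this receptor. Trem2 is a microglial surface receptor for lipids and lipoproteins, and Tyrobp (DAP12) is the adaptor that carries its signal through an ITAM motif to the kinase Syk.

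Every gene of the set was listed above 0 in both libraries, and all of them had higher TPM in replicate 2. TPM is a level per transcript length, scaled to the same sum in each library. Their TPM summed to 322.2 in replicate 2 and 10.8 in replicate 1, and their estimated counts summed to 3456 in replicate 2 and 322 in replicate 1. In replicate 2, 8 of the 9 stood at 1 TPM or more, and in replicate 1 it was 3. Over the 9 genes the log2 ratio of TPM + 1 had a median of 3.86, with a range of 0.78 to 5.61, beside a median of 0.89 over the 14188 genes that averaged 1 TPM or more. This log2 scale understates the change of low genes.

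Of the 9 genes, 8 were called higher in replicate 2 and 0 lower by an exact binomial test on counts, with library sizes scaled by TMM. A call needs a 2-fold difference or more and an adjusted p (Benjamini-Hochberg) under 0.05. Itgam was the gene without a call. Among all 16320 genes tested, 34.5% were called higher and 24.0% lower, so calls are common in these data. The test compares 2 libraries and covers counting error only, and no difference here has a replicate check. With library totals in place of TMM, 43.6% of genes were called higher and 7.9% lower, and 84.7% of all calls were then higher, against 59% with TMM. TMM sizes shift every log2 ratio by -0.61 relative to library totals. The set had 8 calls higher and 0 lower with either scaling.

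The libraries held 17828480 estimated counts in replicate 2 and 18302506 in replicate 1. Mitochondrial genes and their nuclear copy took 29.1% of TPM in replicate 2 and 63.2% in replicate 1. Levels of 1 TPM or more were listed for 14780 genes in replicate 2 and for 11608 in replicate 1. The ratio between the libraries followed GC content: genes of 45 to 50% GC had a median log2 ratio of 0.41, those of 50 to 55% had 1.60, and those of 55 to 60% had 3.03. The cause of these differences between the libraries was not tested. Fewer cells of a type and less RNA per cell cannot be told apart in such tissue samples either.

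**Figure D1:**
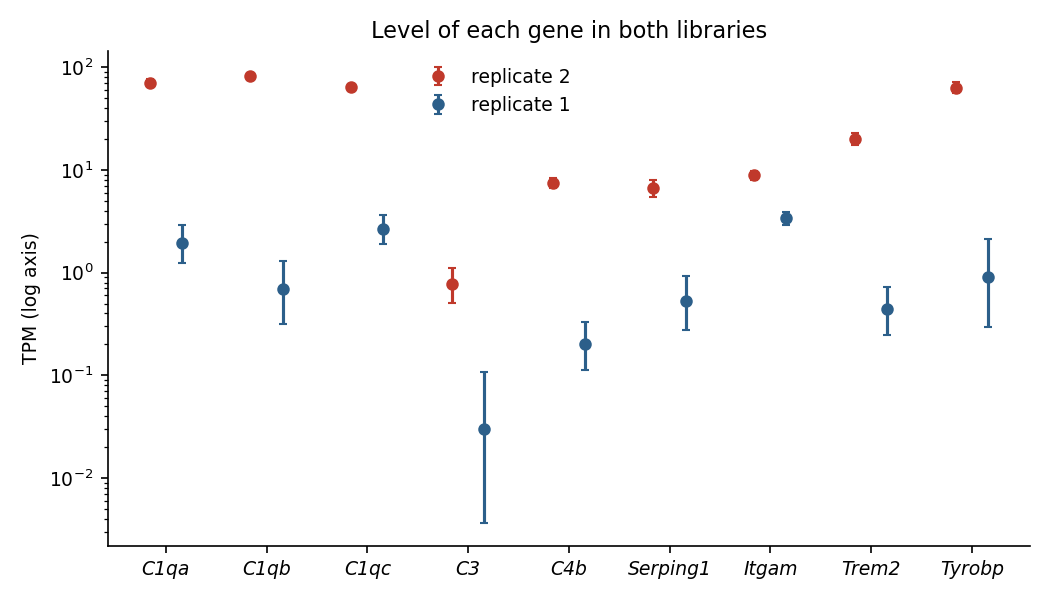
TPM (log axis) of each gene in replicate 2 (red, left of each pair) and replicate 1 (blue), with 95% Poisson counting intervals of each library as bars. All 9 genes lie higher in replicate 2, and the pairs are closest for Itgam, at 8.90 and 3.37 TPM.

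The C1q chain genes were the most abundant of the set in replicate 2. C1qa, the A chain (ENSMUSG00000036887.5, chr4:136895917-136898803, GRCm38, minus strand), had 70.5 TPM from 652 counts in replicate 2 and 1.95 TPM from 24 counts in replicate 1 (36.2 ± 48.5 TPM, SD, n = 2). C1qb, the B chain (ENSMUSG00000036905.8, chr4:136880129-136886187, minus strand), had 81.4 TPM from 795 counts in replicate 2 and 0.69 TPM from 9 counts in replicate 1 (41.0 ± 57.1 TPM, SD, n = 2). C1qc, the C chain (ENSMUSG00000036896.5, chr4:136889804-136893065, minus strand), had 63.7 TPM from 700 counts in replicate 2 and 2.68 TPM from 39 counts in replicate 1 (33.2 ± 43.2 TPM, SD, n = 2). These genes are neighbours on chromosome 4, read in the same direction, and all stood high in replicate 2 and low in replicate 1.

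The size of the difference was unequal among the chains. The TPM ratio, replicate 2 over replicate 1, was 36.2 for C1qa (95% counting interval 24.1 to 56.8, with the lengths taken as fixed), 118 for C1qb (61.8 to 259) and 23.8 for C1qc (17.2 to 33.7). On counts with TMM sizes the log2 ratio was 4.16 for C1qa, 5.82 for C1qb and 3.58 for C1qc, with adjusted p of 5.02e-111, 2.62e-160 and 2.19e-106 by the exact binomial test. The balance of the chains differed accordingly. C1qb over C1qa was 1.15 in TPM (1.04 to 1.28) in replicate 2 and 0.354 (0.145 to 0.789) in replicate 1, so the B chain was the highest of the chains in replicate 2 and the lowest in replicate 1. C1qc over C1qb was 0.783 (0.706 to 0.868) in replicate 2 and 3.88 (1.85 to 9.12) in replicate 1. For C1qc over C1qa the intervals, 0.811 to 1.01 in replicate 2 and 0.806 to 2.39 in replicate 1, both include equality.

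Sequence from the coding regions of these genes shows their base composition, the property along which the ratio of all genes ran; its part in these genes was not tested. Each line is a 60-base stretch of the coding sequence of 1 transcript (GENCODE M21, GRCm38, sense strand), with G and C in capitals. It is the stretch of highest GC content among those that start at the first base of a codon. Itgam, the gene with the smallest TPM ratio, is shown for comparison.
C1qa: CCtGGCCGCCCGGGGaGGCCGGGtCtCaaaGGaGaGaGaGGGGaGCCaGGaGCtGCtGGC
C1qb: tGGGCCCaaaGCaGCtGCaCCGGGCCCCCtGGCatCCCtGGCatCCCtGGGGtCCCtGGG
C1qc: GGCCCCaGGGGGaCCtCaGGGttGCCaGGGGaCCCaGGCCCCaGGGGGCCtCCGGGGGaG
Itgam: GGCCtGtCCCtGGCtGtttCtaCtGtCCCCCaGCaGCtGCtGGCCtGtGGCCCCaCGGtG
The stretches hold 73.3% GC in C1qa (coding bases 115 to 174), 73.3% in C1qb (70 to 129), 80.0% in C1qc (265 to 324) and 68.3% in Itgam (268 to 327). Stretches of at least 65% GC made up 20.4% of the 60-base windows that start at a codon in C1qa, 20.1% in C1qb, 39.2% in C1qc and 2.6% in Itgam. C1qc has the richest coding sequence of the set, at 61.9% GC, although its TPM ratio was below those of C1qa and C1qb, whose coding sequences hold 58.8% and 58.5%.

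The promoters of genes that were high together are printed next, as RefSeq gives them for GRCm38.p6, from 250 bases before to 50 bases after the start. Of the 9 genes, 5 had a promoter sequence there, C1qb, C1qc, C3, Itgam and Trem2; C1qa, C4b, Serping1 and Tyrobp are named only. Capitals mark GAGGAA, the purine-rich core bound by the myeloid factor PU.1, or its reverse complement.
C1qb: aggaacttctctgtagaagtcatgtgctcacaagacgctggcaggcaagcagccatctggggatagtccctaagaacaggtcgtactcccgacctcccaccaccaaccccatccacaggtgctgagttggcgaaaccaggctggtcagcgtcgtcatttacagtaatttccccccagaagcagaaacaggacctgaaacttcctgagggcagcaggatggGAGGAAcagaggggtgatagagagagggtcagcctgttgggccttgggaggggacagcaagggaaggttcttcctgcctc
C1qc: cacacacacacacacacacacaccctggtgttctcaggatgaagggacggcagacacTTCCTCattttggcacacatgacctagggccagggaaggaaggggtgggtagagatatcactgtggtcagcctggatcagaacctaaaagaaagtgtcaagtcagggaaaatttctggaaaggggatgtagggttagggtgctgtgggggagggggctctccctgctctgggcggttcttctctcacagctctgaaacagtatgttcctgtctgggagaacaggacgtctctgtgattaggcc
Trem2: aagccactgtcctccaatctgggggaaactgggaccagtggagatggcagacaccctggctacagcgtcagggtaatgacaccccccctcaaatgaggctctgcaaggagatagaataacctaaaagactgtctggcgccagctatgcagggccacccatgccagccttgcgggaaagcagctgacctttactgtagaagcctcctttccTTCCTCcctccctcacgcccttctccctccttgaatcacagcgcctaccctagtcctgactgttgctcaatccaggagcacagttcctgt
These are chr4:136886151-136886450 (minus strand) for C1qb, chr4:136892865-136893164 (minus strand) for C1qc and chr17:48346151-48346450 (plus strand) for Trem2. The letters start 30 bases before the RefSeq start in C1qb, 193 before in C1qc and 40 before in Trem2. They are the reverse complement in C1qc and Trem2. For C1qc the GENCODE start of the gene, 136893065, lies elsewhere in the window, so the 193 bases depend on the start used. Itgam held 3 matches, and C3 held 0. GAGGAA on either strand was present in 28.3% of 32851 promoters of this length. A match is letters in a window and was not tested as a binding site. Searched on both strands likewise, TATAAA was found in C3 and in 13.6% of all promoters, and CCAAT in Trem2 and in 37.4% of all. No match of one motif overlapped that of another in these genes.

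Of the later cascade, C4b was measured well in replicate 2 and C3 barely. C4b, a C4 gene of mouse (ENSMUSG00000073418.4, chr17:34728380-34743882, minus strand), had 7.49 TPM from 306.5 counts in replicate 2 and 0.20 TPM from 14.7 counts in replicate 1 (3.85 ± 5.15 TPM, SD, n = 2). Its log2 count ratio was 3.74 (adjusted p = 3.76e-49, exact binomial test) and its TPM ratio 37.5 (21.9 to 66.4). C4a, a near-identical neighbour, was listed at 2.67 TPM in replicate 2 and 0.02 TPM in replicate 1. The counts of both are fractions of reads shared out by the quantifier, so the split between C4b and C4a is uncertain.

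C3, the central component on which the arms of the cascade converge (ENSMUSG00000024164.11, chr17:57203970-57228136, minus strand), had 0.77 TPM from 27 counts in replicate 2 and 0.03 TPM from 2 counts in replicate 1 (0.40 ± 0.523 TPM, SD, n = 2). With 2 counts the TPM ratio of 25.7 has a counting interval of 6.45 to 223. The log2 count ratio was 2.89 (adjusted p = 0.000128, exact binomial test). The call was lost when a coefficient of variation of 0.4 between libraries was assumed (adjusted p = 0.0912, edgeR exact test). C4b stood above C3 by 9.73 times in TPM (6.56 to 15.0) in replicate 2 and by 6.67 times (1.55 to 60.1) in replicate 1. By the posterior mean TPM that the authors also deposited, C4b over C3 was 4.02 in replicate 2 and 0.548 in replicate 1, so their order in replicate 1 depends on the estimate.

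Serping1, the inhibitor of C1r and C1s (ENSMUSG00000023224.8, chr2:84765387-84775444, minus strand), had 6.68 TPM from 110 counts in replicate 2 and 0.53 TPM from 12 counts in replicate 1 (3.61 ± 4.35 TPM, SD, n = 2). Its TPM ratio was 12.6 (6.93 to 25.1), and its log2 count ratio 2.57 (adjusted p = 2.51e-13, exact binomial test). The inhibitor thus stood near C4b in level in replicate 2, where C4b over Serping1 was 1.12 (0.899 to 1.41).

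Itgam, the alpha chain of the C3 fragment receptor (ENSMUSG00000030786.14, chr7:128062640-128118491, plus strand), differed least by TPM ratio. It had 8.90 TPM from 387 counts in replicate 2 and 3.37 TPM from 201 counts in replicate 1 (6.14 ± 3.91 TPM, SD, n = 2). The TPM ratio was 2.64 (2.22 to 3.15). On counts with TMM sizes the log2 ratio was 0.37 (adjusted p = 0.00373, exact binomial test), which is below 2-fold, so it was not called. It ranked 9588 among all genes by TPM in replicate 2 and 8586 in replicate 1, the only gene of the set with the higher rank in replicate 1. With TPM rescaled without mitochondrial genes and their nuclear copy, Itgam had 12.6 TPM in replicate 2 and 9.15 TPM in replicate 1, and its log2 ratio of TPM + 1 was 0.42 in place of 1.18. Itgb2, the beta chain that pairs with it, had 3.49 TPM from 105 counts in replicate 2 and 0.41 TPM from 15 counts in replicate 1, and was called higher (log2 count ratio 2.19, adjusted p = 6.39e-11, exact binomial test).

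Trem2 and its adaptor were both higher in replicate 2. Trem2 (ENSMUSG00000023992.10, chr17:48346401-48354147, plus strand) had 19.9 TPM from 221 counts in replicate 2 and 0.44 TPM from 15 counts in replicate 1 (10.2 ± 13.7 TPM, SD, n = 2). Tyrobp (ENSMUSG00000030579.9, chr7:30413760-30417585, plus strand) had 62.9 TPM from 257 counts in replicate 2 and 0.91 TPM from 5 counts in replicate 1 (31.9 ± 43.8 TPM, SD, n = 2). The log2 count ratio was 3.26 for Trem2 (adjusted p = 4.38e-32) and 4.98 for Tyrobp (adjusted p = 1.58e-49), both by the exact binomial test. Tyrobp stood above Trem2 by 3.16 times in TPM (2.63 to 3.80) in replicate 2. In replicate 1 the ratio was 2.07 with an interval of 0.588 to 5.99, so the order there is not resolved at 5 counts of Tyrobp and 15 of Trem2. Tyrobp also serves other receptors, which a level of the adaptor alone does not separate.

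For Trem2 the size of the difference depends on the unit. Its TPM ratio was 45.2 (26.8 to 82.1) and its count ratio 14.7 (8.74 to 26.8). The effective length that the authors assigned to the gene was 1026 bases in replicate 2 and 2377 bases in replicate 1, and the transcripts listed above 0 differed. C3 and C4b also differed in effective length, at 3253 bases in replicate 2 and 4953 in replicate 1 for C3, and at 3773 in replicate 2 and 5196 in replicate 1 for C4b. For the C1q chains and Tyrobp it was nearly the same in both libraries, such as 377.2 bases in replicate 2 and 381.4 bases in replicate 1 for Tyrobp.

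The order of the genes by TPM was clearer in replicate 2. From highest to lowest it ran C1qb, C1qa, C1qc, Tyrobp, Trem2, Itgam, C4b, Serping1 and C3. Neighbours whose ratio did not leave 1 by its counting interval were C1qa and C1qc (1.11, 0.993 to 1.23), C1qc and Tyrobp (1.01, 0.878 to 1.17), and C4b and Serping1. In replicate 1 the order was Itgam, C1qc, C1qa, Tyrobp, C1qb, Serping1, Trem2, C4b and C3. Among neighbours in that order, only Trem2 over C4b (2.20, 1.00 to 4.83) and C4b over C3 were separated by their counting intervals, Trem2 over C4b barely. By posterior mean TPM the order of C4b and C3 was reversed there (0.548). Genes farther apart could still be separated, such as C1qc above C1qb. C1qb was at the 95.8th percentile of all genes in replicate 2 and at the 71.2nd in replicate 1. Itgam was at 77.9 in replicate 2 and 80.2 in replicate 1.

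The genes of the set are GC-rich to a varying degree, and their ratios were read against genes of like composition. Transcript GC content ran from 49.4% in Itgam to 59.5% in C1qa, beside a median of 49.9% over all genes described. All 9 log2 ratios lay inside the middle 95% of the genes in the same 5-point GC class. Of these, 8 lay above their class median, and C3 lay below it. The place of C3 was fixed by the scale. At 0.77 TPM in replicate 2, its log2 ratio of TPM + 1 could not reach the class median of 1.60. C3 averaged 0.40 TPM, below the 1 TPM asked of the genes in the classes. C1qb exceeded 96.3% of the 2758 genes of 55 to 60% GC and Tyrobp 92.9%, while Trem2 exceeded 73.4%. Itgam exceeded 89.3% of the 3764 genes of 45 to 50% GC. Its GC content leaves out ENSMUST00000126475, a transcript with no sequence in GENCODE M21. That transcript took 44.7% of the Itgam counts in replicate 2 and 94.4% in replicate 1, so the class of Itgam is uncertain. At 49.4% Itgam also lies near the class of 50 to 55% GC, where the median log2 ratio was 1.60. In the class that holds the C1q chains, Trem2 and Tyrobp, 92.7% of genes tested were called higher, so a call there sets these genes apart little.

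With a smooth trend on GC content removed, the median log2 ratio of the set was 0.84. C1qb at 2.56 and Tyrobp at 2.52 were highest, C1qa was at 1.12 and C1qc at 1.06, and C3 changed sign, at -1.12. Itgam was at 0.36, by the GC content of its transcripts with a sequence. Before the trend was removed the median was 3.86, with C1qb at 5.61 and Tyrobp at 5.06. The part of GC content in each gene was not tested. C3 is the lowest gene of the set and the one most held down by adding 1 to TPM: adding 0.1 gave a log2 ratio of 2.74.

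**Figure D2:**
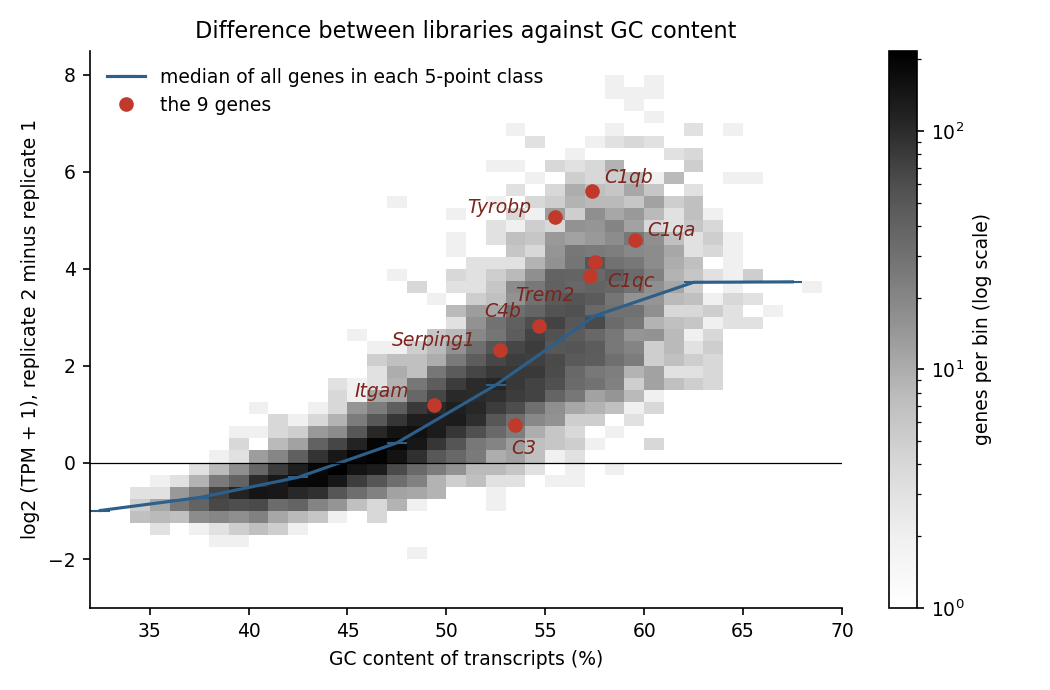
Log2 ratio of TPM + 1, replicate 2 minus replicate 1, against transcript GC content (%), for the 14188 genes averaging 1 TPM or more (grey bins, darker for more genes), with the median of each 5-point class (blue) and the 9 genes (red). Of the 9 genes 8 lie above the median of their class, with C1qb and Tyrobp farthest up, and C3 lies below it. At 0.77 TPM in replicate 2, C3 could not reach that median on this scale. The GC content of Itgam leaves out its transcript ENSMUST00000126475, which has no sequence.

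The transcripts behind Trem2 differed between the libraries. Trem2-203, annotated as a retained intron of 4784 bases and 51.0% GC, took 34.2 of 221 counts in replicate 2 (15.5%, exact interval 10.9 to 20.8%) and 11.7 of 15 counts in replicate 1 (78.1%, 51.9 to 95.7%). The main coding transcript Trem2-201, of 1088 bases and 57.5% GC, took 168.6 counts in replicate 2 (76.3%, 70.3 to 81.9%) and 0 of 15 in replicate 1, which allows a share of up to 21.8%. By the authors' IsoPct, a transcript's percent of its gene's TPM, Trem2-201 was at 86.9% in replicate 2 and 0% in replicate 1, and the shorter coding form Trem2-202 at 9.69% in replicate 2 and 59.7% in replicate 1. By the posterior mean, Trem2-201 was at 81.1% in replicate 2 and 16.6% in replicate 1, and Trem2-202 at 10.9% in replicate 2 and 36.3% in replicate 1. Trem2-203 held 3.45% by IsoPct in replicate 2 and 40.4% in replicate 1, and by the posterior mean 3.41% in replicate 2 and 22.7% in replicate 1. Most of the few Trem2 counts in replicate 1 were thus assigned to the retained intron form. The shares rest on the authors' assignment of reads to transcripts, and the intervals cover counting error only.

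Itgam showed a similar split. One transcript, ENSMUST00000126475, of 4310 bases and with no sequence in the later annotation, took 172.9 of 387 counts in replicate 2 (44.7%, 39.7 to 49.8%) and 189.8 of 201 in replicate 1 (94.4%, 90.4 to 97.2%). The coding transcript Itgam-203 took 108.9 counts in replicate 2 and 10.4 in replicate 1, and the coding transcript Itgam-201 took 95.8 in replicate 2 and 0.85 in replicate 1. The counts of Itgam in replicate 1 thus rested mostly on a single transcript. The coding sequence of Itgam holds 51.6% GC and its 3′ UTR of 1113 bases 40.5%. Of the 9 transcripts that the older annotation gives Itgam, the later one assigns those named Gm49368-201 and Gm49368-202 to the overlapping gene Gm49368, and they held 2.00 counts in replicate 2 and 0 in replicate 1.

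The other genes had mostly 1 main transcript. C1qa, C1qb and Tyrobp have a single annotated transcript each. C1qc-201 held 98.9% by IsoPct in replicate 2 and 96.6% in replicate 1, and Serping1-201 held 92.8% in replicate 2 and 100% in replicate 1. C4b-201 held 69.3% in replicate 2 and 100% in replicate 1, with C4b-203, a short retained intron form, at 23.0% in replicate 2 and 0% in replicate 1. By counts C4b-201 held 95.4% in replicate 2, so a short form with few reads can take a large IsoPct. C3-201 held 62.1% in replicate 2 and 100% of 2 counts in replicate 1. Of the 28 transcripts of the set, 20 were listed above 0 in replicate 2 and 13 in replicate 1.

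**Figure D3:**
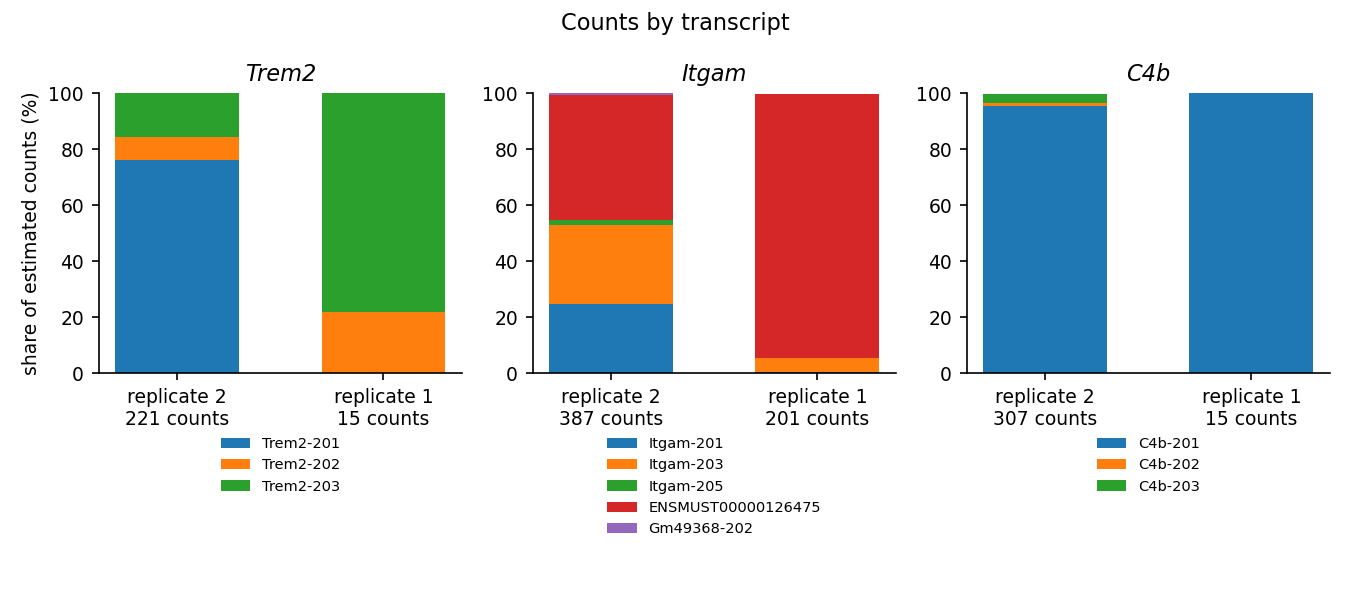
Share of each gene's estimated counts (%) taken by each transcript of Trem2, Itgam and C4b, in replicate 2 (left bar) and replicate 1 (right bar), with the gene's counts under each bar. In replicate 1 the bars of Trem2 and Itgam are mostly 1 transcript, Trem2-203 at 78.1% and ENSMUST00000126475 at 94.4%.

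Other markers of microglia were called in both directions, at shares near those of all genes. All 14 listed markers were above 0 in both libraries, and they summed to 2841 TPM in replicate 2 and 390.4 TPM in replicate 1. Cst3 alone made up most of the sum in replicate 2, at 2414 TPM, against 68.3 TPM in replicate 1. The sums thus say little of the other markers. Of the 14, 5 were called higher (Cst3, Csf1r, Tmem119, Fcrls and Olfml3) and 3 lower, among them P2ry12 and Gpr34, with a median log2 ratio of 0.81, beside 0.89 over all genes. Of all genes tested, 34.5% were higher and 24.0% lower, so these counts say nothing particular of the markers. Scaled by library totals, 5 stayed higher and 1, Gpr34, lower, where 43.6% of all genes were higher and 7.9% lower. Csf1r, the growth factor receptor microglia depend on, had 36.7 TPM in replicate 2 and 2.89 TPM in replicate 1 at 53.9% GC. Gpr34, a microglial lysophospholipid receptor, had 17.2 TPM in replicate 2 and 35.3 TPM in replicate 1 at 36.5% GC. Both are examples from a list with calls in both directions, and the cause was not tested. Cst3, a secreted protease inhibitor, had 2414 TPM in replicate 2 and 68.3 TPM in replicate 1. The protease Ctss had 94.0 TPM in replicate 2 and 63.6 TPM in replicate 1 and was not called.

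Markers of blood and border cells were low, while those of other brain cells were abundant. Of all genes tested 34.5% were higher and 24.0% lower, and with library totals 43.6% and 7.9%. The lists below are short, and counts near these shares say nothing particular of a cell type. Of 8 border macrophage markers 2 were higher and 2 lower, with library totals 2 and 0, and they summed to 13.7 TPM in replicate 2 and 7.52 TPM in replicate 1. Markers of neutrophils and monocytes, cells that also express Itgam, summed to 11.6 TPM in replicate 2 and 11.5 TPM in replicate 1, with Ly6g, a defining neutrophil marker, at 0 in both. Of the 4 tested, 0 were higher and 2, S100a8 and Ccr2, were lower, and with library totals S100a8 alone. Lymphocyte markers summed to 0.92 TPM in replicate 2 and 0.40 TPM in replicate 1, with Cd3e, Cd3d and Nkg7 among those at 0 in both. Astrocytes, which express C3 and C4b in some states, had 4 of 10 markers higher and 2 lower (with library totals 5 and 0), a sum of 2306 TPM in replicate 2 and 1110 TPM in replicate 1, and no marker at 0. Liver, the main source of blood complement, had its marker Alb at 5.22 TPM in replicate 2 and 0.11 TPM in replicate 1, and Apoa2 at 4.77 TPM in replicate 2 and 0.25 TPM in replicate 1. Of 7 liver markers tested 5 were higher and 0 lower, and with library totals 6 and 0; they summed to 869.1 TPM in replicate 2 and 72.6 TPM in replicate 1, nearly all of it Ttr, a choroid plexus gene too. Endothelial markers had 4 of 8 higher and 1 lower (totals 5 and 1), meningeal fibroblast markers 3 of 8 and 1 (totals 4 and 0), and choroid plexus markers 3 of 7 and 0 under both scalings. The part of these cells in the complement values was not tested.

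The rest of the cascade was sparse in this tissue. Of 23 further genes of complement activation, 9 had the 10 counts needed for the test, 4 were called higher and 0 lower, and with library totals 6 and 0. Of all genes tested 34.5% were higher and 24.0% lower, and with library totals 43.6% and 7.9%. On 9 genes these counts say little of the cascade. The genes called were Cfp, Masp1, C1ra and C4a. Cfp, properdin, which stabilises the C3 convertase of the alternative pathway, had 7.80 TPM in replicate 2 and 0.19 TPM in replicate 1. Masp1, a protease of the lectin pathway, had 5.39 TPM in replicate 2 and 0.98 TPM in replicate 1, and C1ra, the C1r protease that C1q activates, 1.87 TPM in replicate 2 and 0.27 TPM in replicate 1. The terminal components C6 and C9 and the mannose-binding lectins Mbl1 and Mbl2 had 0 counts in both libraries.

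Regulators had calls in both directions, as all genes did (34.5% higher and 24.0% lower). Of 14 tested 7 were higher (Clu, Vtn, Csmd2, Sez6, Sez6l, Sez6l2 and Susd4) and 5 lower, among them Cd46, Cd55, Cr1l and Csmd3. With library totals 7 were higher and 3 lower, where 43.6% of all genes were higher and 7.9% lower. Cr1l and Csmd3 were then not called. On 14 genes these counts say little of the regulators. The membrane inhibitor Cd55 had 6.47 TPM in replicate 2 and 9.93 TPM in replicate 1 at 40.6% GC. Sez6, a neuronal protein with complement control domains, had 72.9 TPM in replicate 2 and 1.95 TPM in replicate 1 at 58.3% GC, and Sez6l2 162.2 TPM in replicate 2 and 52.8 TPM in replicate 1. Clusterin (Clu), which blocks the terminal complex, was the most abundant, at 646.8 TPM in replicate 2 and 232.0 TPM in replicate 1. Regulators called higher in replicate 2 held from 54.4% GC in Susd4 to 58.3% in Sez6. Those called lower held from 37.8% in Cd46 to 44.7% in Cr1l. The part of GC content in these calls was not tested.

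Of 9 complement receptors tested, 2 were higher (Itgb2 and Lrp1) and 2 lower (C3ar1 and Cr2), where 34.5% of all genes tested were higher and 24.0% lower. DESeq2 size factors gave the same lower calls. Library totals gave 4 higher and 0 lower, where 43.6% of all genes were higher and 7.9% lower. These counts say nothing particular of the receptors. Lrp1, a large endocytic receptor, had 109.4 TPM in replicate 2 and 1.07 TPM in replicate 1. C3ar1, the receptor for the C3a fragment, had 0.69 TPM in replicate 2 and 0.89 TPM in replicate 1. Calr and C1qbp, which bind C1q, had 439.6 and 79.0 TPM in replicate 2 and 192.1 and 62.5 TPM in replicate 1, with no call for either.

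Genes of the Trem2 and Tyrobp pathway had calls in both directions, as all genes did. Of 22 tested, 11 were higher (Apoe, Clu, Csf1r, Pik3cd, Inpp5d, Ptpn6, Syk, Plcg2, Vav1, Card9 and Apoa1) and 5 lower (Pik3r1, Adam10, Adam17, Cd33 and Clec7a). Among all genes tested the shares were 34.5% higher and 24.0% lower. DESeq2 size factors gave the same 5 lower. With library totals 11 were higher and 0 lower, where 43.6% of all genes were higher and 7.9% lower. Syk, the kinase recruited by Tyrobp, had 1.43 TPM in replicate 2 and 0.18 TPM in replicate 1. Plcg2, the phospholipase downstream of it, had 1.77 TPM in replicate 2 and 0.15 TPM in replicate 1. Inpp5d (SHIP1), a phosphatase that restrains this signal, had 7.40 TPM in replicate 2 and 1.34 TPM in replicate 1. Apoe, a lipoprotein ligand of Trem2, had 2133 TPM from 17354 counts in replicate 2 and 8.51 TPM from 113 counts in replicate 1, at 60.7% GC. Adam10, a protease that sheds Trem2, had 30.3 TPM in replicate 2 and 44.5 TPM in replicate 1, at 42.1% GC, and Pik3r1, a regulatory subunit of PI3 kinase, 43.5 TPM in replicate 2 and 78.6 TPM in replicate 1. The alternative adaptor Hcst (DAP10) had 3 counts in replicate 2 and 0 in replicate 1.

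**Figure D4:**
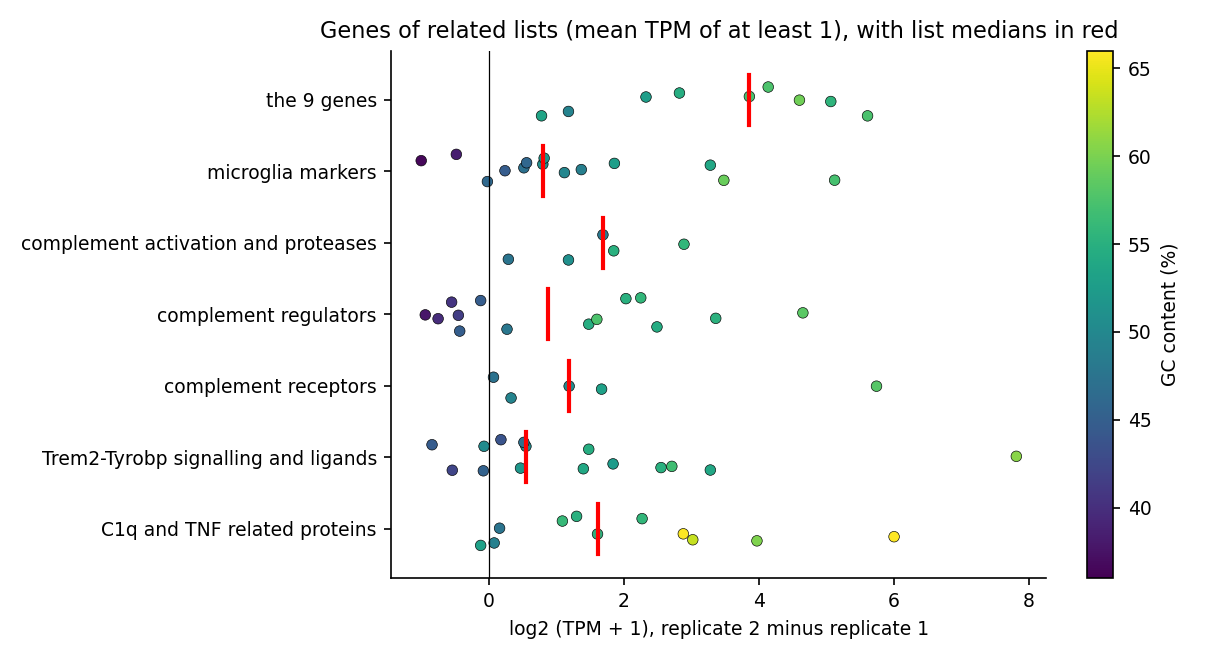
Log2 ratio of TPM + 1, replicate 2 minus replicate 1, for the 9 genes (all, whatever their level) and, where they averaged 1 TPM or more, the microglia markers and related lists; points are genes coloured by GC content (%), red bars list medians. The 9 genes have a median of 3.86 and the 14 microglia markers 0.81; points to the left are mostly dark, of low GC content.

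The genes most like the C1q chains in level over both libraries came from other pathways. By distance in log2 (TPM + 1) over these 2 libraries to the mean point of C1qa, C1qb and C1qc, they were Eif3d, Tesc, Bicdl1, Csdc2 and Cntnap1, at distances of 0.07 to 0.11. Eif3d, a subunit of a translation initiation factor, had 71.5 TPM in replicate 2 and 1.77 TPM in replicate 1. In all, 107 genes lay within a distance of 0.5 of that point.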

How the data were processed

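Poly(A) RNA of 1 mouse brain was measured in 2 libraries, labelled technical replicates, with a gene and a transcript table each. The expected counts, which need not be whole, and the TPM values, with posterior mean versions, were deposited by the authors. IsoPct, the percent of a gene's TPM held by a transcript, was deposited by the authors too. The interval bounds of TPM beside them are treated as a score, since the deposited files do not give their level: TPM lay above its bounds for 3 of the 9 genes in replicate 2 (C1qa, C1qb and C1qc) and below them for 1 in replicate 1 (C3). The build is mm10 and the annotation GENCODE M4, per the deposited file listings. The sources used here give no name for the quantifier or the aligner. GENCODE M21, of the same build, gave symbols, positions and transcript sequences through the identifiers. Of 43346 genes 42462 had a symbol. Sequence was found for 97.95% of transcripts, with equal length for 90.06% of these. Gene GC content weights each transcript that had a sequence by its mean TPM. Transcripts without a sequence, such as ENSMUST00000126475 of Itgam, are left out of it.

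The members and the 14 lists, with 180 entries, were chosen with earlier results of these data known. Genes were named by rule: of the microglia list and the 5 pathway lists the 3 of highest mean TPM, the called members of the pathway lists, and the 5 genes nearest to the C1q chains in level. Of the other cell type lists only a few are named, and these and any further genes were chosen after their values were seen. A few members of the lists are counted but not reported here by name. Csf1r, Siglech, Clu and Ttr each stand in more than 1 list. Rounded expected counts went into an exact binomial test, two-sided, on TMM sizes (edgeR 4.0.16, R 4.3.3), over the 16320 genes whose counts summed to 10 or more. For the fold, 0.5 was added to each count. With 1 library per side, the quasi-likelihood test of edgeR could not be fitted. The script was tested on simulated data. Ratio and share intervals (exact Clopper-Pearson, 95%) and Poisson intervals cover counting error only, and a count of 0 allows up to 3 counts, or 1.68e-05% of all counts in replicate 2 and 1.64e-05% in replicate 1. Trends on GC content and length were lowess fits (statsmodels 0.14.6, fraction 0.2). Python 3.11.15 ran scipy 1.17.1, numpy 2.4.6, matplotlib 3.10.9 and pandas 2.3.3. DESeq2 1.42.0 gave size factors for an alternative.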

Additional observations from a re-analysis of the deposited data

How the results depend on the processing

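The count of genes called higher in the set, 8 of 9, was 7 to 9 under the other scalings, filters, folds and assumed spreads run, and the count lower was 0 in each. It fell to 7 with at least 50 counts in the sum, which leaves C3 untested, and with an assumed coefficient of variation of 0.4; it was 9 with no minimum fold, which adds Itgam. Over all genes the assumed spread of 0.4 gave 3337 higher and 95 lower, against 5638 and 3917. Genes lower numbered 1290 with library totals, 6397 with no minimum fold and 406 with at least 4-fold. The median log2 ratio of the set, 3.86, was 2.19 with 5 added to TPM, 2.90 on CPM scaled by TMM, 0.84 with the GC trend removed and 2.29 with the length trend removed. C3 alone reversed, at -1.12 with the GC trend removed and -0.06 with the length trend removed. Both values are on TPM + 1, which holds down the log2 ratio of C3 at 0.77 TPM in replicate 2. Posterior means gave a mean TPM of 1.35 for C3 (0.40 as TPM), a mean IsoPct of 52.5 for C4b-201 (84.7) and 14.5 for C3-201 (81.1), and kept 4 of 9 places of the order in replicate 1. Itgam had a mean TPM of 10.9, against 6.14, without mitochondrial genes and their copy. The causes were not tested. Of the alternative values of single genes, 102 held their call or moved within their spread, 37 moved by more, 2 reversed (both C3), 1 lost its call (C3) and 1 gained it (Itgam). No paired analysis was possible because there is 1 group, and leaving out a library leaves no comparison. Depth limits C3, Tyrobp and C1qb most, with 2, 5 and 9 counts in replicate 1.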

Other observations

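Proteins that share the globular head of C1q but do not belong to the complement cascade were read in the same way. Of 14 tested genes of this family 8 were called higher in replicate 2 and 1, C1ql3, lower by the exact binomial test. With library totals 9 were higher and 0 lower. Of all genes tested 34.5% were higher and 24.0% lower, and with library totals 43.6% and 7.9%. The listed genes had a median of 55.1% GC. In the classes of 50 to 55% and 55 to 60% GC, 50.2% and 92.7% of genes tested were called higher, so the count sets the family apart little. C1qtnf4 had 75.3 TPM from 900 counts in replicate 2 and 0.19 TPM from 3 counts in replicate 1, at 70.7% GC, a ratio of 396 with a counting interval of 135 to 1925. C1ql2, a synaptic organiser of hippocampal mossy fibres, had 9.87 TPM in replicate 2 and 0.34 TPM in replicate 1 at 63.4% GC. C1ql1, the climbing fibre ligand of the cerebellum, stood at 89 counts in replicate 2 and at 0 in replicate 1. C1qtnf5 stood at 178.5 counts in replicate 2 and at 0 in replicate 1. C1qtnf1, C1qtnf2, C1qtnf6 and C1qtnf12 were also called higher, at 2.59, 1.44, 1.73 and 15.0 TPM in replicate 2 and 0.18, 0, 0.28 and 2.31 TPM in replicate 1.

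Members of this family that were not called higher differed in how near their TPM stood. The cerebellin Cbln1, not called, had 12.5 TPM in replicate 2 and 4.50 TPM in replicate 1 (ratio 2.78, 2.20 to 3.55). C1ql3 had 41.0 TPM in replicate 2 and 44.8 TPM in replicate 1 at 53.1% GC, although its counts were called lower with TMM sizes (1044 in replicate 2 and 1513 in replicate 1), and Cbln2 had 37.5 TPM in replicate 2 and 33.4 TPM in replicate 1 at 47.5% GC. Cbln4 had 15.7 TPM in replicate 2 and 14.8 TPM in replicate 1. Neither Cbln2 nor Cbln4 was called.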
